A study of Mus musculus with 12 samples.

Results

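Many genes of the mouse genome lie so close to a neighbour that one stretch of open chromatin serves the ends of both. Peaks of this kind were taken from a table of ATAC-seq counts in germinal center B cells: autosomal peaks whose midpoint lay within 1 kb of an end of at least 2 different protein-coding RefSeq genes. The rule used coordinates alone and found 2341 of 68689 peaks, or 3.49% of the 67159 autosomal peaks and 14.9% of the 15681 autosomal peaks near any gene end. They are called shared-end peaks here. They touch 3178 genes in 1666 different gene sets, and 2294 of them lie at the ends of exactly 2 genes.

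The peaks come from 12 Omni-ATAC-seq libraries, in which the Tn5 transposase cuts and tags accessible DNA, made from sorted splenic cells of C57BL/6 mice aged 8 to 10 weeks. Mice were Pbrm1+/+ (WT) or Pbrm1-/- (HOMO). Pbrm1 encodes a subunit found in PBAF but not in the other SWI/SNF remodelling complexes. Each genotype gave sorted CB and CC cells, so there were 4 groups (WT CB, HOMO CB, WT CC and HOMO CC) of 3 libraries each. Column names in the table begin with Pbrm1AID, a term that the labels leave unexplained, so how the allele was made and in which cells it acts is not given here. Nothing in the labels says that the libraries are from separate mice, so p-values measure the spread between these libraries, which may be partly technical.

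As background, a pair of genes transcribed away from each other from nearby starts is said to share a bidirectional promoter. Such promoters are common in mammals, are usually rich in CpG dinucleotides and active in most cell types, and often serve genes of DNA repair, mitochondria and basic metabolism. Other neighbours meet with the end of one gene at the start of the next, or with both ends together, where open chromatin is usually weaker. SWI/SNF complexes slide and evict nucleosomes, and PBAF is known to bind at promoters. In the germinal center, centroblasts (usually written CB) divide and mutate their antibody genes, and centrocytes (CC) are selected by T cells.

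The DNA between both starts is short enough to print, and 6 stretches are shown because an open peak sits over each of them. The first 5 belong to peaks that were lower in HOMO than in WT in both CB and CC, and the last to a peak that was called in neither. The starts are those of the promoter table, which can lie inside a gene's longest annotated span. The stretches are written on the plus strand from the start of the left gene, which is transcribed leftwards, to the start of the right gene, from RefSeq promoter sequences of GRCm38.p6 (the build mm10). Capitals mark CCAAT or its complement ATTGG, the box bound by NFY, and in the stretch of Tsc2 an overlapping pair of ETS family letters (GGAAGT or CCGGAA, here on the minus strand).
Poglut2 and Bivm: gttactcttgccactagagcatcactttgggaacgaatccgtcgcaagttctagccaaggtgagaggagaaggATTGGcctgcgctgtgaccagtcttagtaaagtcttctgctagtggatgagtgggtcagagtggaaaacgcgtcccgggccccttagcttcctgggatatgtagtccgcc
Acad8 and Thyn1: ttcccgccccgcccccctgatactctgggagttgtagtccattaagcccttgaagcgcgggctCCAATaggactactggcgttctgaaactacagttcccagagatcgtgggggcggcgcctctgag
S100a1 and S100a13: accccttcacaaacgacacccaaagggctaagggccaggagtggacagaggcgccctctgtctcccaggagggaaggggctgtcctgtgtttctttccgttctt
Tsc2 and Nthl1: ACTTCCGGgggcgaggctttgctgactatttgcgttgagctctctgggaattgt
Mrpl37 and Cyb5rl: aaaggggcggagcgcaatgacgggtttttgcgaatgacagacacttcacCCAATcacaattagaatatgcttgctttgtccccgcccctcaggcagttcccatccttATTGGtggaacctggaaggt
Mrps12 and Sars2: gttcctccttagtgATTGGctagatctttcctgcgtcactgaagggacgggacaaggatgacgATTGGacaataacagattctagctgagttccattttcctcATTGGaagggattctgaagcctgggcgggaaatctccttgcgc
The stretches run over chr1:44118774-44118956, chr9:26999550-26999676, chr3:90514331-90514434, chr17:24632628-24632681, chr4:107066867-107066993 and chr7:28741822-28741967. The midpoint of the peak lay 13 bp from the centre of the Poglut2 and Bivm stretch and 68 bp from that of Mrps12 and Sars2. GC content was 53.6% at Poglut2 and Bivm, 59.8% at Acad8 and Thyn1, 51.2% at Mrpl37 and Cyb5rl, and 49.3% at Mrps12 and Sars2. CCAAT letters were in 3 of the 5 stretches that were lower and in the 1 that was not called.

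The gene by which the genotypes are named has a shared end itself. Pbrm1 starts beside Gnl3, which encodes a nucleolar GTP-binding protein, and the pair has 2 peaks on chromosome 14. At the stronger one, accessibility was 29.03, 26.5 and 39.3 CPM (counts scaled to a library of 1000000 with TMM factors) in WT CB libraries 1, 2 and 3 and 26.5, 29.6 and 36.0 in HOMO CB. It was 24.5, 32.3 and 39.5 CPM in WT CC and 28.4, 26.0 and 36.2 in HOMO CC. The groups overlapped in both populations (log2 fold change -0.04 in CB and -0.09 in CC). The weaker peak had 9.51 to 10.1 CPM in WT CB and 7.17 to 8.25 in HOMO CB, and 9.08 to 9.57 in WT CC and 6.70 to 8.72 in HOMO CC. Its HOMO values were thus all below the WT values, but neither difference was called. The log2 fold changes were -0.32 in CB (edgeR adjusted p = 0.265) and -0.30 in CC (edgeR adjusted p = 0.350). Accessibility at these peaks does not check the genotype labels.

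Library totals ran from 6431354 to 45590454 counts, and shared-end peaks held 7.67% to 8.70% of them. Gene-end peaks were found at 7 of 7 germinal center B cell markers (23.1 to 50.9 CPM). Of the markers of other cells, 1 of 4 for T cells had one (Cd4), as did the erythroid factor Klf1, 0 of 3 for myeloid cells and 0 of 2 for natural killer cells. Mean accessibility at Cd4 was 7.29 CPM in WT CB and 3.07 in HOMO CB, and 7.21 in WT CC and 3.85 in HOMO CC. At Klf1 it was 12.3 and 8.08 CPM in CB and 9.09 and 6.25 in CC. The part of other cell types in the results was not tested. A pair of WT libraries stood apart: at a peak in Xist, the RNA of X inactivation, both numbered 2 had 0.458 and 0.782 CPM, and the other 10 had 4.73 to 17.2. Both HOMO libraries numbered 1 were the shallowest. Results are given below with and without these libraries where the counts of calls differ by more than 1.5 times.

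Shared-end peaks had a median of 30.02 CPM over the 12 libraries. For 1745 of them the reference gave strands for the genes. Of these, 1184 were head-to-head (both near ends were starts) with a median of 34.8 CPM, 357 head-to-tail (a start beside an end) with 29.8 CPM, and 102 tail-to-tail with 6.42 CPM. The shared share of gene-end peaks was highest on chromosome 7 (19.4%) and lowest on chromosome 18 (10.5%). The 5 most accessible peaks were at Dusp10 with 1700056E22Rik (138 CPM), Fam72a with Srgap2 (136 CPM), Pmel with Rab5b (133 CPM), Dcaf6 with Mpc2 (129 CPM), and Ubxn6 with Hdgfl2 (129 CPM). None of these 5 was called in any comparison, and their log2 fold changes between genotypes lay between -0.09 and 0.19. The peaks near the most gene ends were a pair in the Pcdhg cluster, a family of neuronal adhesion proteins whose 24 annotated genes share their last exons. They were weak (6.14 and 3.003 CPM) and were called in no comparison.

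In CB, 229 of the 2341 shared-end peaks were lower in HOMO and 5 were higher (edgeR quasi-likelihood test, Benjamini-Hochberg adjusted p under 0.05 over all 68689 peaks). The called shares were 9.78% lower and 0.214% higher, where 3.85% of all peaks were lower and 0.779% higher. The log2 fold changes of the lower peaks ran from -1.77 to -0.31 with a median of -0.65. The median over all shared-end peaks was -0.12, against 0.01 over all peaks tested. In bulk libraries, fewer open alleles and a lower cutting rate at each allele cannot be told apart. The number called rests on single libraries: it was 22 without HOMO CB library 2, 57 without WT CB library 1, 75 without HOMO CB library 3 and 149 (120 of them lower) without WT CB library 3. It was 129 without both WT libraries numbered 2. Leaving out any other library, those of CC included since all share one fit of the spread, gave 161 to 288.

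The lower peaks of smallest p in CB covered varied genes. At Noc4l and Ddx51, a head-to-head pair whose products work in the maturation of the small and the large ribosomal subunit, WT CB libraries had 16.9, 18.1 and 18.4 CPM and HOMO CB libraries 8.25, 8.73 and 8.74. All 3 HOMO values were below every WT value, as the choice of named peaks required. The log2 fold change was -1.05 ± 0.14 (SE, edgeR adjusted p = 0.000791). At Lrrc14 and Lrrc24, genes of leucine-rich repeat proteins, values were 20.5, 17.6 and 14.7 CPM in WT CB and 7.33, 7.43 and 7.76 in HOMO CB (-1.22 ± 0.15, edgeR adjusted p = 0.000647). The spread within HOMO was far smaller than the gap to WT.

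Acad8 encodes a dehydrogenase of valine breakdown, and its neighbour Thyn1 a thymocyte nuclear protein. Their central peak, over the stretch printed above, had 27.8, 22.6 and 24.8 CPM in WT CB and 14.1, 12.2 and 11.4 in HOMO CB (-1.02 ± 0.15, edgeR adjusted p = 0.00109). The steepest fall among them was at Poglut2, an enzyme that adds glucose to EGF repeats, and Bivm: 5.71, 5.04 and 5.11 CPM in WT CB and 1.18, 1.52 and 1.73 in HOMO CB (-1.77 ± 0.26, edgeR adjusted p = 0.00123). This peak is weak in every group and was also lower in CC, where the HOMO values were 4.44, 2.05 and 2.32 against 5.98, 4.995 and 6.00 in WT (-1.09 ± 0.25, edgeR adjusted p = 0.0243). Library 1 was the highest HOMO CC library there.

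The others of this group were Eno2 (a neuronal enolase) with Lrrc23, Fkbp1b (a regulator of calcium release channels) with Wdcp, Ciao1 (cytosolic iron-sulfur protein assembly) with Tmem127 (a membrane protein that restrains mTOR), and Atg9a (autophagy) with Ankzf1 (ribosome quality control). Their log2 fold changes in CB were -1.13, -1.42, -0.92 and -1.05. At Fkbp1b and Wdcp the WT CB libraries had 19.1, 17.0 and 23.0 CPM and the HOMO CB libraries 9.43, 5.34 and 8.21. Each of these 8 peaks stayed called whichever library was left out, with a highest adjusted p of 0.0253, at Atg9a and Ankzf1. All 8 were lower in CC as well, with log2 fold changes from -1.25 to -0.67, and there each lost its call without HOMO CC library 2 (edgeR adjusted p from 0.0743 to 0.221).

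In CC, 123 shared-end peaks were lower in HOMO (5.25%) and 3 were higher. Of all peaks, 2.17% were lower and 0.578% higher. The lower peaks had a median log2 fold change of -0.74. These calls are the least firm: 0 shared-end peaks, and 17 of all peaks, were called without HOMO CC library 2. The peaks named below were chosen among called peaks whose groups do not overlap. That their libraries agree in direction is therefore no separate support. Without HOMO CC library 3 there were 24 calls, without WT CC libraries 1, 2 and 3 there were 26, 39 and 64, and without HOMO CC library 1 there were 202. Leaving out both WT libraries numbered 2 gave 22, and both HOMO libraries numbered 1 gave 248.

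Ndufa8 encodes a subunit of respiratory complex I and stands head-to-head with Morn5. The peak had 9.16, 9.87 and 8.02 CPM in WT CC and 3.84, 3.76 and 3.57 in HOMO CC (-1.28 ± 0.20, edgeR adjusted p = 0.00541). Tsc2, the tuberin brake on mTORC1, faces Nthl1, a DNA glycosylase of base excision repair. That peak had 29.03, 27.3 and 28.5 CPM in WT CC and 19.5, 14.4 and 15.5 in HOMO CC (-0.81 ± 0.13, edgeR adjusted p = 0.00566). S100a1 and S100a13 encode small calcium-binding proteins, and their peak had 17.1, 13.2 and 13.9 CPM in WT CC and 9.02, 6.66 and 7.26 in HOMO CC (-0.98 ± 0.16, edgeR adjusted p = 0.00575). At each of the 3 pairs no HOMO value reached a WT value, as the choice of named peaks required. Fam219a with Dnaic1 (a dynein chain of cilia) and Rufy4 with Tns1 (tensin 1, which links integrins to actin) had log2 fold changes of -0.93 and -1.45. Without HOMO CC library 2 each of these 5 lost its call, with edgeR adjusted p from 0.0672 (Ndufa8) to 0.0808.

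Of the shared-end peaks lower in CB, 42.4% (97 of 229) were also lower in CC, and 78.9% of those lower in CC were also lower in CB. In CC, 228 of the 229 had a log2 fold change below 0, and in CB all 123 had one. Of all shared-end peaks 62.2% were below 0 in CC and 73.6% in CB, and of all peaks 46.3% and 49.0%. The overlap of calls over all peaks is not given here. Same-numbered CB and CC libraries of a genotype deviated together, so the 2 populations are not independent. Lower in either population were 255 peaks at 238 gene sets with 480 genes. The difference between the genotype effects in CB and CC was called at 0 shared-end peaks by edgeR (background 0.0%) and at 0 by DESeq2. At an unadjusted edgeR p under 0.05 there were 10 (0.427%, beside 1.18% of all peaks), fewer than that threshold gives with no difference. The test did not pair same-numbered CB and CC libraries within genotype, so it may miss differences. A peak called in 1 population alone is thus not shown to differ between them, nor to be alike in both.

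**Figure D1:**
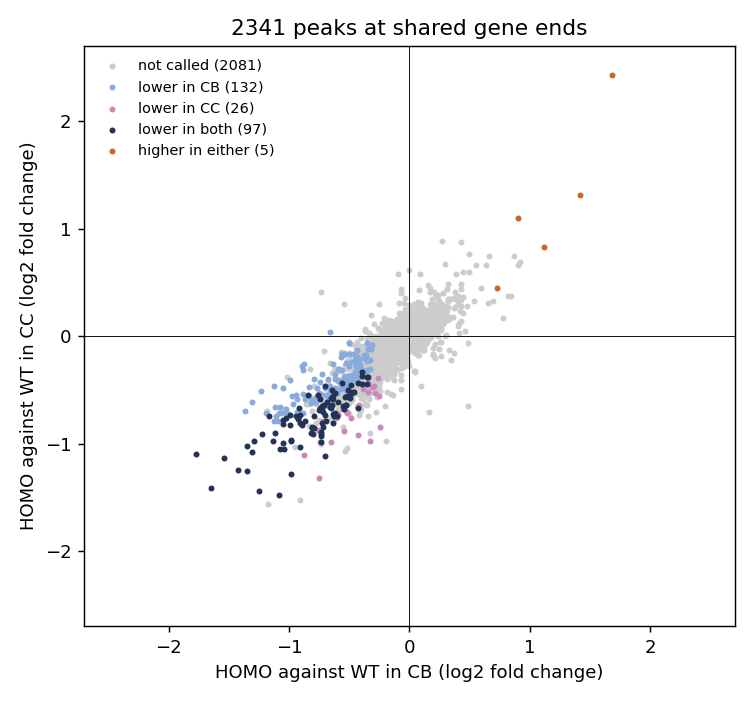
Log2 fold change of HOMO against WT in CB (x axis) and in CC (y axis) for the 2341 shared-end peaks, 1 point each, coloured by call. The 97 peaks called lower in both populations lie at the lower left, and the 5 called higher in either at the upper right.

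In CB 5 shared-end peaks were called higher in HOMO, and 3 of these were called in CC too. Without WT CB library 3, 29 were called higher in CB, while higher calls over all peaks fell from 535 to 404. With every library kept, 0.214% of shared-end peaks and 0.779% of all peaks were higher in CB. Without WT CB library 3 the share was the larger at shared-end peaks, so this order rests on that library. At Lhx3, a LIM homeobox factor of the pituitary and motor neurons, with Qsox2, WT CB libraries had 2.05, 1.83 and 3.81 CPM and HOMO CB libraries 7.47, 6.51 and 7.82 (1.41 ± 0.24, edgeR adjusted p = 0.00344). In CC the values were 2.95, 3.43 and 3.08 against 6.21, 7.48 and 9.38 (1.32 ± 0.24, edgeR adjusted p = 0.00906, 0.0802 without HOMO CC library 2). The ends of Tas1r3, a sweet and umami taste receptor subunit, and Dvl1, a Wnt signal transducer, meet tail-to-tail in the annotation. That peak had 0.931, 0.722 and 1.62 CPM in WT CC and 3.84, 6.70 and 7.53 in HOMO CC (2.43 ± 0.36, edgeR adjusted p = 0.00541, 0.0601 without HOMO CC library 2). Edc4, a scaffold of mRNA decapping, with Nrn1l was the third (0.90 in CB and 1.10 in CC). Ina, a neuronal intermediate filament, with Nt5c2 (0.73) and Cystm1 with Pfdn1, a prefoldin subunit (1.12), were called in CB, where their WT and HOMO values did not overlap. All 5 were weak, at 2.48 to 8.84 CPM. In CB the call at Lhx3 held whichever library was left out, and the other 4 lost it without HOMO CB library 2 or another library (highest edgeR adjusted p from 0.0707 to 0.239).

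The share of gene-end peaks called lower changed with their level and was highest at 4 to 16 CPM, so shared-end peaks were set beside the 13340 autosomal peaks at the end of only 1 gene in bins of 0.5 log2 CPM. With the levels weighted alike, 7.49% of the others were lower in CB against 9.78% of the shared-end peaks, and 4.45% against 5.25% in CC. Without that weighting the others gave 9.18% in CB and 5.73% in CC, so in CC the order of the sets turns with the weighting. The mean of the medians per level was -0.15 for shared-end and -0.12 for other peaks in CB, and -0.10 and -0.08 in CC. By level, 0 of 17 shared-end and 2.60% of other peaks were lower in CB under 2 CPM, and 8.74% and 5.76% at 2 to 4 CPM. It was 20.7% of shared-end and 16.4% of other peaks at 4 to 8 CPM, 21.7% and 19.1% at 8 to 16, 12.5% and 10.1% at 16 to 32, and 4.27% and 2.00% at 32 to 64. Above 64 CPM it was 0 of 286 shared-end peaks and 3 of 951 others. The shared-end share was the larger in CB from 2 to 64 CPM, while in CC it was 4.85% against 5.10% at 2 to 4 CPM and 11.5% against 11.3% at 4 to 8. The sets share libraries and were not compared by a test.

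**Figure D2:**
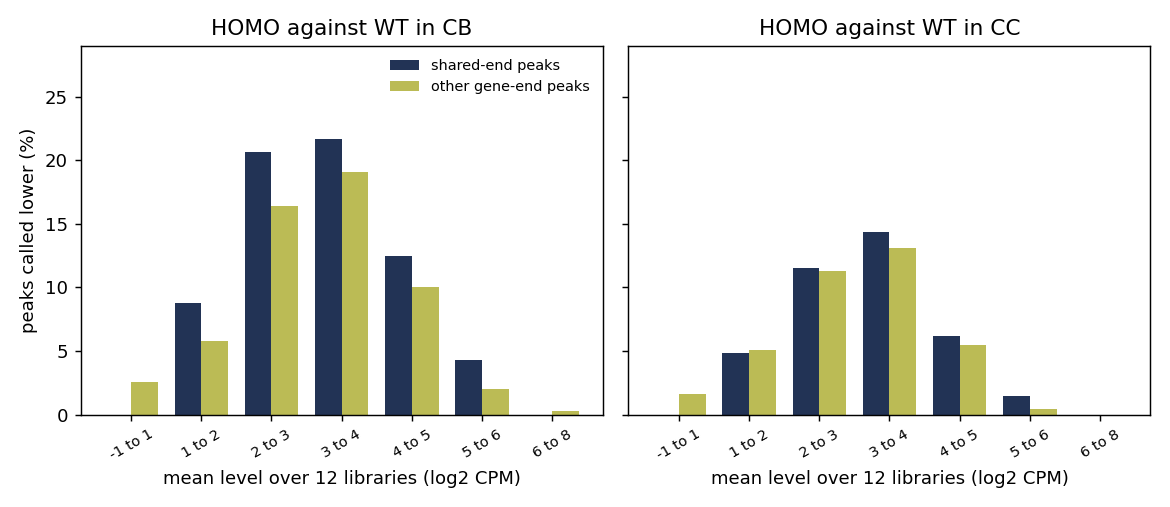
Percent of peaks called lower in HOMO (y axis) by mean level over the 12 libraries in log2 CPM (x axis), for shared-end peaks (dark) and peaks at the end of 1 gene (light), in CB and CC. In CB the share is highest at log2 CPM of 2 to 4, at 20.7% and 21.7% of shared-end peaks.

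In single libraries, the median deviation of shared-end peaks from their 12-library mean was 0.09, 0.06 and 0.20 log2 units in WT CB and -0.001, -0.07 and -0.04 in HOMO CB. It was 0.001, -0.01 and 0.10 in WT CC and -0.08, -0.12 and -0.05 in HOMO CC. Other gene-end peaks of like level moved with them, at 0.08, 0.04 and 0.17 in WT CB and 0.02, -0.06 and -0.03 in HOMO CB. The shared-end median minus that of the others was 0.017, 0.011 and 0.036 in WT CB and -0.021, -0.008 and -0.010 in HOMO CB. In CC it was 0.004, -0.002 and 0.019 in WT and -0.019, -0.025 and -0.005 in HOMO. WT and HOMO libraries did not overlap on this difference in either population. It was smaller than the median deviation of the other gene-end peaks in 10 of 12 libraries, the exceptions being HOMO CB library 1 and WT CC library 1. WT library 3 was the highest in both populations.

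**Figure D3:**
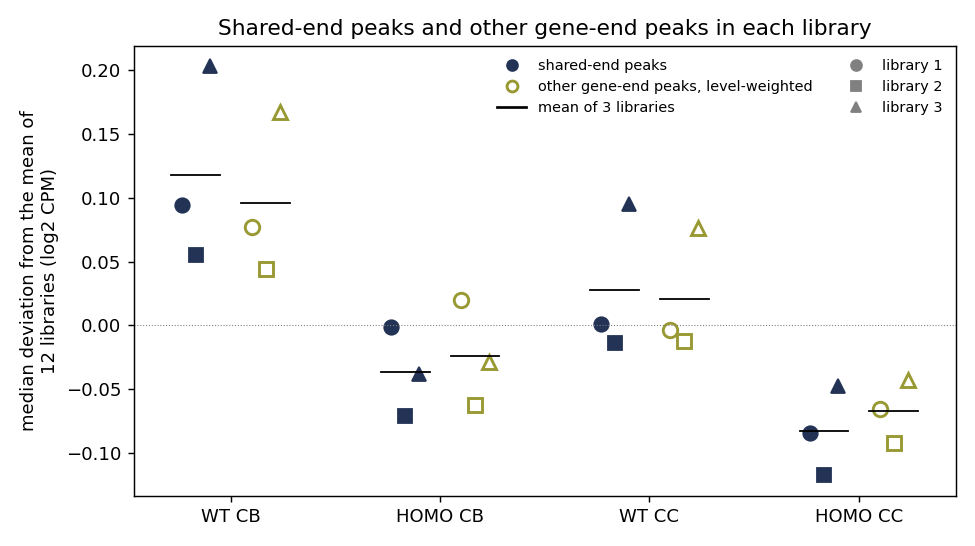
Median deviation from the mean of the 12 libraries in log2 CPM (y axis) of shared-end peaks (filled) and level-weighted other gene-end peaks (open), by group (x axis), 1 symbol per library, with a line at the mean of 3. Both sets are lower in HOMO than in WT in each population, and WT CB library 3 is highest at 0.20.

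The called share differed with how the genes meet, which was not tested. Of head-to-head peaks, 11.4% were lower in CB and 6.50% in CC, where peaks at a single start, weighted to the same levels, gave 7.58% and 4.36%. Of head-to-tail peaks 6.44% were lower in CB (8.71% for single starts of like level). Of tail-to-tail peaks it was 2.94%, beside 1.64% of peaks at a single gene's far end, and their median log2 fold change was 0.06. Within the head-to-head class, 14.2% were lower in CB where the annotated starts were less than 100 bp apart (380 peaks), 10.2% at 100 to 250 bp, 10.1% at 250 to 500 bp and 6.00% at 500 bp or more (50 peaks). In CC the same distances gave 7.11%, 6.31%, 10.1% and 2 of 50 peaks, so the order differed from that in CB. Single starts of like level gave 7.76%, 6.94%, 6.84% and 8.35% in CB and 4.42%, 3.98%, 3.87% and 4.81% in CC. Where the gene spans overlapped, the CB share was 8.82% for overlaps up to 500 bp and 14.6% for longer ones (123 peaks).

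Position at the end also went with the share. At 4 to 32 CPM, 17.0% of 212 head-to-head peaks centred within 250 bp of the nearest gene end were lower in CB, 22.8% of 127 at 250 to 500 bp and 23.6% of 174 at 500 to 1000 bp. At single starts the same distances gave 10.9%, 18.6% and 20.3%. In CC the head-to-head shares were 6.60%, 18.9% and 14.4%, and those at single starts 5.95%, 12.1% and 13.7%. All shared-end peaks at 4 to 32 CPM gave 12.7%, 19.6% and 20.2% in CB and 5.46%, 13.0% and 13.0% in CC. At like distance they were thus close to single starts. They were below them at 500 to 1000 bp in both populations and within 250 bp in CC. At the edge of the rule, 22 of 193 peaks with the second gene end 900 to 1000 bp away were lower in CB, and 11 of 150 with it 1000 to 1100 bp away, which are not members.

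**Figure D4:**
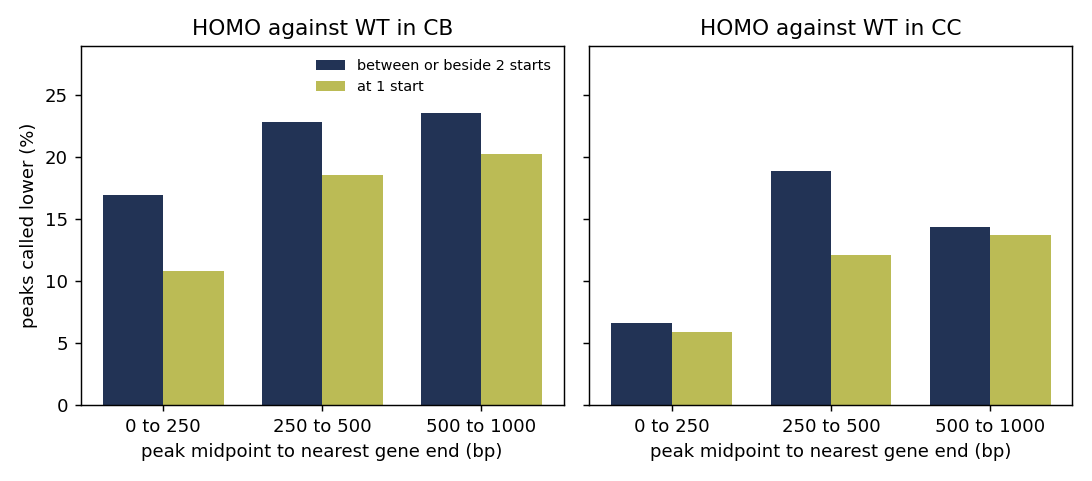
Percent of peaks at log2 CPM of 2 to 5 (4 to 32 CPM) called lower in HOMO (y axis) by the distance from the peak midpoint to the nearest gene end in bp (x axis), for head-to-head pairs (dark) and single starts (light). In CB the head-to-head share is 17.0% nearest the end and 23.6% farthest from it.

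A shared end often holds more than 1 peak. There were 675 adjacent pairs of shared-end peaks at 619 gene sets, with midpoints a median of 625 bp apart. In CB, 13 pairs had both peaks lower and 124 had 1, and in 106 of the 124 the lower peak was the weaker one. Neighbours were not matched for level. Of all shared-end peaks, 8.74% were lower in CB at 2 to 4 CPM, 21.7% at 8 to 16 and 4.27% at 32 to 64. A trait of the weaker peak beyond its level is thus not shown. The other peak of these 124 pairs had a log2 fold change below 0 in 98, where 73.6% of all shared-end peaks had one in CB. Over the 675 pairs the fold changes of neighbours were weakly correlated (Pearson r of 0.25 in CB and 0.15 in CC). The pairs named next were chosen because their peaks differ. At Hnrnpc, an RNA-binding protein of the spliceosome, and Rpgrip1, the weaker peak had 14.7, 17.1 and 16.1 CPM in WT CB and 8.38, 8.08 and 5.96 in HOMO CB (-1.12 ± 0.20, edgeR adjusted p = 0.00383, 0.0404 without HOMO CB library 3, still called). The stronger one had 128, 124 and 133 CPM in WT CB and 140, 126 and 124 in HOMO CB (0.01 ± 0.08). Tada2b, a subunit of SAGA-type acetyltransferase complexes, with Ccdc96 showed the same: the weaker peak changed by -0.91 ± 0.18 (edgeR adjusted p = 0.00728, 0.0637 without HOMO CB library 2) and the stronger one had 66.7, 59.2 and 76.3 CPM in WT CB and 71.3, 76.4 and 82.0 in HOMO CB (0.18 ± 0.10). At Rufy4 and Tns1 the lower peak had 5.53 CPM on average and its neighbour 9.38 CPM, with log2 fold changes of -1.25 and 0.04 in CB. The test was not run on the difference between neighbours.

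Long-known bidirectional promoters gave 16 shared-end peaks, of which 4 were lower in CB and 3 in CC, with a median log2 fold change of -0.03 in CB. Of all peaks 3.85% and 2.17% were lower, and of all shared-end peaks 9.78% and 5.25%. At Mcm4, a subunit of the replicative helicase, and Prkdc, the kinase of end joining, the flanking peak had 9.90, 11.1 and 11.01 CPM in WT CB and 6.29, 6.62 and 7.20 in HOMO CB (-0.66 ± 0.16, edgeR adjusted p = 0.022, 0.12 without HOMO CB library 2). The main peak had 66.1, 69.2 and 79.9 CPM in WT CB and 62.3, 68.4 and 64.3 in HOMO CB (-0.14 ± 0.11) and the groups overlapped. Wrn, a RecQ helicase, with Purg had a flanking peak at 9.42, 7.33 and 6.43 CPM in WT CB and 5.76, 4.34 and 4.26 in HOMO CB (-0.74 ± 0.21, edgeR adjusted p = 0.0436, 0.231 without WT CB library 1). Its main peak changed by 0.06 ± 0.13. Hspd1 and Hspe1, the mitochondrial chaperonin and its cofactor, likewise had 1 lower peak (-0.42 ± 0.12, edgeR adjusted p = 0.0464, 0.165 without HOMO CB library 3) and a stronger one that was not called (0.23 ± 0.12).

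Surf1, an assembly factor of cytochrome oxidase, with Surf2 had 1 shared-end peak, and it was lower: 35.3, 31.5 and 40.2 CPM in WT CB and 27.6, 23.1 and 27.9 in HOMO CB (-0.46 ± 0.11, edgeR adjusted p = 0.0257, 0.187 without HOMO CB library 2). The peaks of Atm with Npat (88.7 CPM at the main one), Paics with Ppat (60.3 CPM), Cbx3 with Hnrnpa2b1 (68.2 CPM) and Mrps12 with Sars2 (58.8 CPM) were called in neither population. At Mrps12 and Sars2 the libraries had 54.3, 55.5 and 63.7 CPM in WT CB and 60.2, 61.2 and 63.0 in HOMO CB. The log2 fold change was 0.09 ± 0.10.

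**Figure D5:**
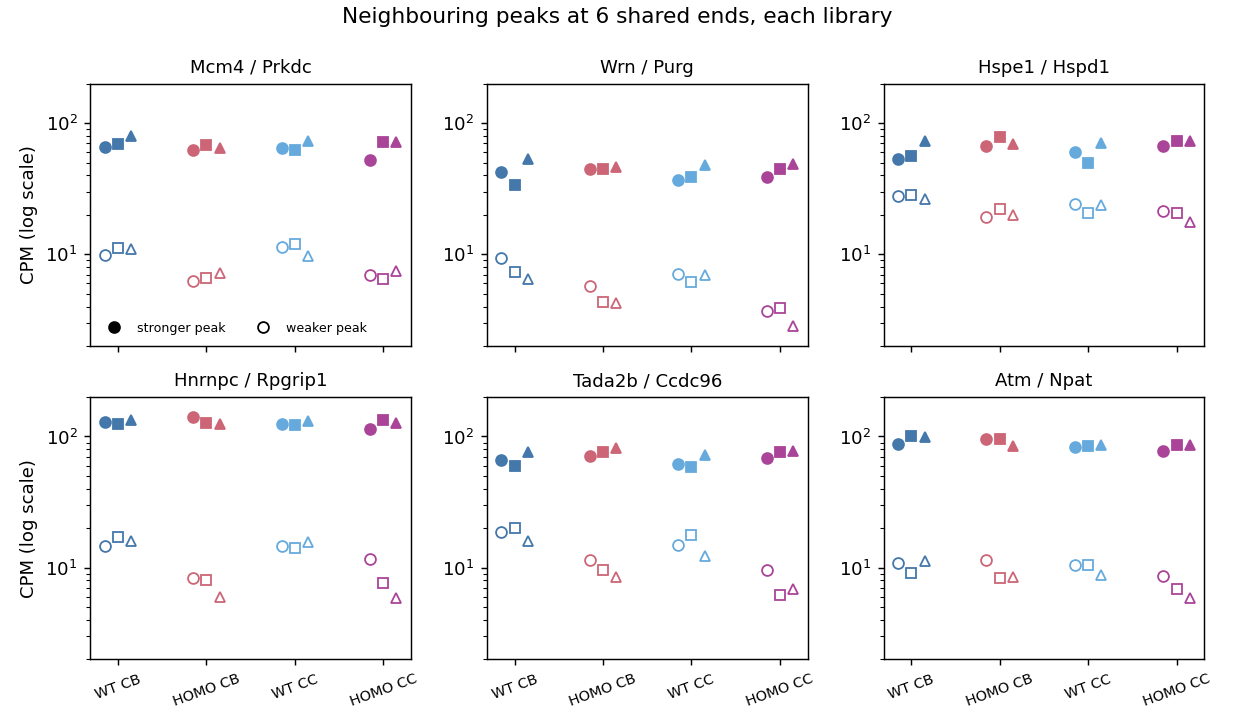
CPM on a log scale (y axis) of the weaker (open) and stronger (filled) of 2 neighbouring peaks at 6 shared ends, 1 symbol per library (circle 1, square 2, triangle 3), by group (x axis). At Mcm4 and Prkdc the weaker peak is at 9.90 to 11.1 CPM in WT CB and 6.29 to 7.20 in HOMO CB, while the values of the stronger one overlap.

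The share of genes with a shared end differed among gene classes, which was not tested. Of genes with any gene-end peak, 28.3% (3178 of 11234) had a shared one. This share was 50.7% for mitochondrial ribosomal proteins (36 of 71), 48.6% for DNA replication and repair genes (52 of 107), 46.3% for respiratory chain subunits (38 of 82), 35.7% for tRNA synthetases (10 of 28), 34.6% for SWI/SNF subunits (9 of 26), 28.0% for interferon and antigen presentation genes, 27.8% for cytosolic ribosomal proteins and 26.5% for the proteasome. It was 15.9% for Zfp zinc finger genes (44 of 277) and 12.5% for germinal center and B cell genes (7 of 56).

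Between genotypes, no shared-end peak of these 10 lists was higher in either population. Lower in CB were 8 of 74 peaks for replication and repair, 7 of 45 for the mitochondrial ribosome, 6 of 57 for the respiratory chain, 5 of 60 for Zfp genes, 2 of 13 for tRNA synthetases, 1 of 28 for the cytosolic ribosome, 1 of 12 for the proteasome, 1 of 16 for SWI/SNF, 0 of 11 for B cell genes and 0 of 6 for interferon genes. In CC the counts were 6, 3, 3, 4, 1, 2, 0, 0, 0 and 0. The percent lower of all peaks, 3.85% and 2.17%, and of all shared-end peaks, 9.78% and 5.25%, stand beside these small numbers.

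Polk, a translesion DNA polymerase, faces Cert1, a ceramide transporter. Their peak had 39.8, 37.0 and 47.1 CPM in WT CB and 26.6, 25.1 and 23.6 in HOMO CB (-0.73 ± 0.12, edgeR adjusted p = 0.0019), and held its CB call whichever library was left out. Xrcc3, a gene of recombination repair, with Zfyve21 had 43.8, 40.3 and 42.6 CPM in WT CB and 25.9, 22.8 and 29.2 in HOMO CB (-0.70 ± 0.12, edgeR adjusted p = 0.00246), and also held it. Mrpl47 of the mitochondrial ribosome faces Ndufb5 of complex I, so that 1 peak counts in both lists, and it changed by -0.91 ± 0.18 in CB (edgeR adjusted p = 0.00759, 0.08 without HOMO CB library 2). Atp5c1, the gamma subunit of ATP synthase, with Kin had 15.4, 17.3 and 13.2 CPM in WT CB and 6.94, 7.84 and 7.85 in HOMO CB (-0.99 ± 0.17, edgeR adjusted p = 0.00291). Kars, the lysyl-tRNA synthetase, with Terf2ip, a telomere protein, had a log2 fold change of -0.94, Rpl35a with Iqcg -0.99, and Zfp276 with Vps9d1 -0.87. In these pairs the reads cannot be given to 1 gene or the other.

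Sequence features were read in 300 bp promoters (250 bp before to 50 bp after the start) of 14811 autosomal genes. Head-to-head genes (1451 promoters) had a median of 24 CpG and 62.7% GC, beside 22 and 61.7% for genes with a peak at their start alone and 14 and 56.7% for all. Exact letters on either strand were counted. ETS letters (GGAAGT or CCGGAA) were in 55.1% of head-to-head promoters, 41.4% of single-start ones and 36.3% of all. YY1 letters (AAGATGGC) were in 7.65%, 4.14% and 3.27%, and SP/KLF letters (GGGCGG) in 67.3%, 69.4% and 47.8%. For CCAAT the shares were 38.8%, 39.0% and 39.4%. Promoters of a pair overlap, so the 2 genes of a pair are not independent.

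Head-to-head promoters with a lower peak in either population (263) and without (1188) held ETS letters in 56.7% and 54.7% and CCAAT in 40.7% and 38.4%. The NRF1 letters, GCGCA followed by TGCGC, were in 0 of 263, which allows a share of up to 1.14% by the limit of 3 counts and 1.39% by the exact 95% binomial interval, and in 41 of 1188 (3.45%, exact 95% binomial interval 2.49% to 4.65%). CREB/ATF letters (TGACGTCA) were in 2 of 263 (0.760%, 0.0922% to 2.72%) and in 56 of 1188 (4.71%, 3.58% to 6.08%). At 4 to 32 CPM alone, NRF1 letters were in 0 of 212 and 24 of 577, and CREB/ATF letters in 2 and 37. Promoters of single starts with a lower peak had NRF1 letters in 21 of 891 (2.36%) and CREB/ATF letters in 33. E-box letters (CACGTG) were in 7.98% and 12.3% of head-to-head promoters with and without a lower peak. The intervals and the limit of 3 counts treat promoters as independent, though the 2 of a pair overlap, so they are too narrow. They cover counting error only, and a match to letters is a description, not a bound site.

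Between the sorted populations, few shared-end peaks were called. In WT, 2 shared-end peaks were higher in CC than in CB and 15 lower (0.726% called, where 3.35% of all peaks were higher and 2.08% lower). In HOMO, 13 were higher and 11 lower (1.03%, where 4.78% of all peaks were higher and 2.44% lower). Other gene-end peaks of like level gave 1.29% and 1.67%. Same-numbered CB and CC libraries of a genotype deviated together, and in a fit with genotype and number as a block 445 shared-end peaks (37 higher, 408 lower) were called in WT and 233 (69 higher, 164 lower) in HOMO, beside 22.1% and 22.2% of all peaks. Without TMM factors, edgeR's correction for library composition, the split in WT was 10 higher and 9 lower, and in HOMO 16 and 8, so the balance of directions depends on the scaling. Of 34 peaks called in either genotype, 7 were called in both. In WT, 4, 5, 3 and 2 were called without WT CB libraries 1 and 2 and WT CC libraries 1 and 2, 33 without WT CC library 3, 32 without HOMO CC library 1, and 13 to 24 without any other. Of all peaks, these fits in the same order called 1.89%, 2.99%, 2.94%, 2.28%, 5.19%, 6.46% and 4.27% to 5.98%. Without both WT libraries numbered 2 the count was 0, beside 0.767% of all peaks. Without both HOMO libraries numbered 1 it was 39, beside 7.31%. In HOMO, 14, 11 and 10 were called without HOMO CB libraries 1, 2 and 3, 8 and 15 without HOMO CC libraries 2 and 3, and 17 to 31 without any other. Of all peaks, these fits in the same order called 5.47%, 4.33%, 3.58%, 2.94%, 4.93% and 6.60% to 8.05%.

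Apoe, a lipid carrier, and Tomm40, the mitochondrial import channel, meet within a few bases and had both of their peaks lower in CC. The stronger had 42.3, 46.4 and 34.9 CPM in WT CB and 29.1, 30.9 and 27.3 in WT CC (-0.49 ± 0.11, edgeR adjusted p = 0.0102, 0.0564 without WT CB library 1 and 6.39e-07 with the block). In HOMO it had 53.0, 47.1 and 46.2 CPM in CB and 37.9, 37.0 and 34.7 in CC (-0.41 ± 0.11, edgeR adjusted p = 0.021, 0.0887 without HOMO CC library 3). Every CC value was below every CB value of its genotype. Atl1, a GTPase that shapes the endoplasmic reticulum, and Sav1, a Hippo pathway scaffold, meet tail-to-tail at a weak peak with 4.29, 4.70 and 5.31 CPM in WT CB and 1.55, 1.505 and 3.12 in WT CC (-1.15 ± 0.27, edgeR adjusted p = 0.0168, 0.0951 without WT CC library 2). In HOMO it fell from 3.27, 4.91 and 5.0 to 1.63, 1.71 and 1.35 CPM (-1.56 ± 0.28, edgeR adjusted p = 0.00179), a call held without any single library.

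Higher in CC was the meeting point of Derl3, a factor of endoplasmic reticulum protein degradation, and Smarcb1, a core SWI/SNF subunit. It had 4.72, 5.91 and 8.14 CPM in HOMO CB and 11.8, 16.0 and 16.9 in HOMO CC (1.22 ± 0.19, edgeR adjusted p = 0.000414), and 9.76, 8.82 and 11.8 in WT CB and 13.6, 14.7 and 15.9 in WT CC (0.53 ± 0.18, edgeR adjusted p = 0.0986, and 0.000752 with the block). The HOMO call held whichever library was left out. This peak was also called lower in HOMO CB than in WT CB (-0.66 ± 0.19, edgeR adjusted p = 0.0497, 0.234 without HOMO CB library 2). Plekhg5 with Tnfrsf25, the death receptor DR3, rose from 4.10, 4.70 and 3.08 CPM in WT CB to 7.06, 9.33 and 6.66 in WT CC (0.99 ± 0.25, edgeR adjusted p = 0.0247, 0.13 without WT CC library 2) and by 1.32 ± 0.27 in HOMO (edgeR adjusted p = 0.00408). At Bhlha15, a transcription factor of secretory cells that is known from plasma cells, with Tecpr1, the log2 fold changes were 0.82 in WT and 0.83 in HOMO. That peak had 2.54 to 2.86 CPM in WT CB and 4.57 to 5.07 in WT CC, with edgeR adjusted p = 0.0357 (0.143 without WT CB library 1).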

How the data were processed

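The deposited table holds raw read counts per peak, made by the authors on mm10 per the submitters' processing notes, for 68689 peaks of 501 bp in 12 libraries. BWA, FastQC, deepTools and R 4.2.1 appear in those notes with no role beside them. How peaks were called or pooled, how duplicates were handled and whether the Tn5 offset was applied is not given there. Groups and numbers come from the labels. Gene ends came from RefSeq tables of GRCm38.p6, with 21900 protein-coding genes, of which 17492 had a strand.

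Counts were fitted with edgeR 4.0.16 (R 4.3.3): TMM factors (0.954 to 1.05), filterByExpr (0 peaks removed), 1 mean per group over all 12 libraries, robust quasi-likelihood F tests, two-sided, with Benjamini-Hochberg adjustment over all peaks. The common biological coefficient of variation was 0.142. Log2 CPM were computed with a prior count of 2. The fit was tested on simulated data with 50 peaks per fold size among 68689: in CB it called 24% at 1.5-fold, 70% at 2-fold and 90% at 3-fold with 11 false calls, and in CC 18%, 62% and 96% with 10. DESeq2 1.42.0 gave an alternative fit. Tables and figures were made with Python 3.11.15 (pandas 2.3.3, numpy 2.4.6, matplotlib 3.10.9).

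The members, the 11 gene lists, the tests and the rule for named peaks were chosen with earlier results of these data known. The rule took up to 8 called peaks of smallest p per direction and genotype contrast with non-overlapping groups and log2 CPM of at least 1, fewer for CC against CB, up to 3 called peaks per list, all peaks of long-known bidirectional promoters, the 5 strongest peaks, those near the most genes, and neighbouring peaks that differ. Pairing was checked on deviations from group means. Same-numbered CB and CC libraries of a genotype had r of 0.21 to 0.52 (6 pairs), and libraries of unlike number -0.34 to 0.12 (12), so the blocked fit stands beside CC against CB. Across genotypes r ran from -0.01 to 0.40 for like numbers (12) and from -0.30 to 0.18 for unlike ones (24), which were not treated as pairs. Alternatives were no TMM factors, a level filter, the block, DESeq2, each library left out, windows of 0.5 and 2 kb, and finer level bins. Leaving out both HOMO libraries numbered 1 or both WT libraries numbered 2 was chosen after seeing the data.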

Additional observations from a re-analysis of the deposited data

How the results depend on the processing

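Counts of called shared-end peaks moved with the libraries and the block more than with the scaling. With the replicate number as a block, 539 peaks (31 higher, 508 lower) were called in CB instead of 234 and 378 (34 higher, 344 lower) in CC instead of 126. Over all peaks the block likewise raised the called share, from 4.63% to 13.2% in CB and from 2.75% to 10.4% in CC. Across genotypes, libraries numbered 1 or 3 correlated above 0.1 with those of like number and libraries numbered 2 in no pair (-0.01 to 0.03), so the numbers were not taken as pairs. With genotype and number as a block, CC against CB gave 445 calls in WT (17 without it) and 233 in HOMO (24), beside 22.1% and 22.2% of all peaks. Leaving out 1 library gave 22 to 288 peaks in CB, 0 to 202 in CC, 2 to 33 between populations in WT and 8 to 31 in HOMO. The called share of all peaks then ran from 0.496% to 5.98% in CB and from 0.0247% to 4.97% in CC. Between populations it ran from 1.89% to 6.46% in WT and from 2.94% to 8.05% in HOMO. Without both HOMO libraries numbered 1 the counts of shared-end peaks were 248 in CC, and between populations 39 (WT) and 14 (HOMO). Of all peaks, 6.47%, 7.31% and 5.28% were called there. Without both WT libraries numbered 2 the counts were 129 in CB, 22 in CC and 0 for CC against CB in WT, beside 2.42%, 0.473% and 0.767% of all peaks. DESeq2 called 29 for CC against CB in WT. A window of 0.5 kb, which leaves 1243 peaks, gave 88 (84 lower) in CB and 32 (30 lower) in CC. Of all peaks, 4.63% were called in CB and 2.75% in CC. With this window the called share in CC was no larger than that of all peaks. For CC against CB it gave 8 (WT) and 10 (HOMO), and a window of 2 kb (3698 peaks) gave 44 and 58. Of all peaks, 5.43% (WT) and 7.22% (HOMO) were called for CC against CB. The difference of the genotype effects stayed at 0 calls under each of these settings. None of these fits paired CB and CC libraries within genotype for this difference.

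The median of shared-end minus other gene-end peaks in CB was -0.031 and lay between -0.035 and -0.021 with 1 library left out (-0.021 without WT CB library 3). It was -0.017 with a window of 2 kb. Of 71 calls at named peaks, 17 held under each alternative, 13 of 32 for CB, 0 of 25 for CC, and between populations 0 of 8 (WT) and 4 of 6 (HOMO), and 0 changed direction. A 1.5-fold change was called in 24% of simulated cases in CB. Those cases were drawn at random from all peaks, so the share missed at shared-end peaks is not known. The smallest fall called at shared-end peaks in CB was -0.31 log2 units. The cause of these shifts was not tested.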

Other observations

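On the X chromosome, which the rule left out, 44 peaks lay within 1 kb of the ends of at least 2 genes. Of these, 2 were lower in CB and 0 in CC, and their median log2 fold changes were -0.10 in both. On chromosome 14, which carries Pbrm1, 12 of 90 shared-end peaks were lower in CB. Of all peaks 3.85% were lower in CB and 2.17% in CC, and of all autosomal shared-end peaks 9.78% and 5.25%, and neither chromosome was tested against these shares.

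The stretches between 2 annotated starts that lie 20 to 250 bp apart were read for 348 pairs, with a median length of 104 bp. In 72 of them a peak of the pair was lower in HOMO in either population. CCAAT letters were in 36.1% of these and in 32.6% of the other 276, ETS letters in 40.3% and 37.7%, and SP/KLF letters in 56.9% and 48.2%. E-box letters were in 0 of 72 and 20 of 276, NRF1 letters in 0 and 9. These counts share promoters with those of the report and are no separate support for them.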
